A study of Mus musculus with 6 samples.

Results

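Txnip, the 4 alpha-arrestins Arrdc1 to Arrdc4 that resemble it, and the glucose-sensing transcription factors MondoA (Mlxip), ChREBP (Mlxipl) and their partner Mlx were followed in the telencephalon, the forebrain division that gives rise to cerebral cortex and basal ganglia. These 8 genes, of 22651 in the tables, were taken by symbol, and the set was proposed with the difference between the groups in these same mice already known. The values of the 8 genes in this contrast are therefore given as a description, with no p-value. They took part in the fit over all genes, and whether that fit called them is stated as part of the description. The mRNA-sequencing compared 3 WT mice, Tsc1 flox/flox with no Cre (Emx1 +/+), with 3 TSC1-KO mice, Tsc1 flox/flox with 1 copy of Emx1-cre, all at postnatal day 0. Both groups carried the floxed Tsc1 alleles. The Cre is made from the Emx1 locus and acts in the embryonic dorsal cortex, so cells of ventral origin in the same tissue keep Tsc1 by design. Each sample was 1 mouse, and p-values measure the spread between these mice. Total expected counts, RSEM's estimates of the reads from each gene, were between 14119365 and 17772865 per sample, so that 3 counts, the least taken as a detection, were worth 0.169 to 0.212 CPM, the count scaled to the depth of the library.

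Txnip encodes the thioredoxin-interacting protein, an arrestin-fold protein that binds reduced thioredoxin and draws glucose transporters from the cell surface. The alpha-arrestins share the arrestin fold and act as adaptors that bring Nedd4-family ubiquitin ligases to membrane proteins. MondoA and ChREBP each pair with Mlx, enter the nucleus when glucose-6-phosphate is high, and bind pairs of E-boxes called carbohydrate response elements. Txnip and Arrdc4 are the best-known MondoA targets, and in other cells mTOR has been found to bind MondoA and hold down Txnip.

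The targeted gene, Tsc1, was measured at 50.2, 31.99 and 28.4 TPM, a share of all transcripts that takes their length into account, in WT replicates 1, 2 and 3, and at 27.1, 21.7 and 22.4 TPM in TSC1-KO replicates 1, 2 and 3. Its log2 fold change, TSC1-KO over WT, was -0.66 (SE 0.175, edgeR adjusted p = 0.1), so it did not pass the threshold of 0.05. The paper describes a deletion of part of the exons of Tsc1, whereas this level counts reads over the whole gene. It is therefore no measure of how complete the deletion was. Over the 16 alternative analyses the adjusted p of Tsc1 ranged from 0.00309 to 0.321, and it passed with DESeq2 (0.00309), with a replicate block (0.0217) and without both samples numbered 3 (0.0382). WT replicate 1 was the highest of the 6 mice, and without it the log2 fold change was -0.40 (adjusted p = 0.0659). In a principal component analysis of all genes, TSC1-KO replicate 3 lay at -3.95 on the first component, which held 47.7% of the variance. TSC1-KO replicates 1 and 2 lay at 26.5 and 30.3, and WT replicates 1, 2 and 3 at -7.43, -19.1 and -26.3. The samples numbered 3 were also the 1 mouse of each group with reads of the Y-linked gene Ddx3y (64.25 TPM in WT and 61.97 TPM in TSC1-KO, 0 in the other mice). Xist, the female-specific transcript of the X chromosome, was at 0.48 and 0.66 TPM in them and at 442 to 510 TPM in the other mice. By these genes the samples numbered 3 were males and the others females. Results that rest on TSC1-KO replicate 3 are therefore given with and without it. Markers of dorsal telencephalon were present in every sample, with a summed level of 1390 to 1580 TPM in WT and 1440 to 1870 TPM in TSC1-KO, and edgeR called 0 of 6 (1 at an unadjusted p under 0.05, 1 called by DESeq2).

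The promoters of Txnip and Arrdc4 are shown because these were the 2 genes of the set with the largest differences between the groups, and because both are known targets of the Mondo-Mlx factors. Each sequence covers bases -250 to -11 from the RefSeq start on GRCm38.p6, 5′ to 3′ on the gene's own strand. Capitals mark a CCAAT box (or ATTGG, its reverse), an E-box, a forkhead motif (here GTAAACA, the reverse of TGTTTAC) or a pair of E-box-like sites. The Txnip window lies at chr3:96557707-96557946 on the plus strand and the Arrdc4 window at chr7:68749249-68749488 on the minus strand.
Txnip: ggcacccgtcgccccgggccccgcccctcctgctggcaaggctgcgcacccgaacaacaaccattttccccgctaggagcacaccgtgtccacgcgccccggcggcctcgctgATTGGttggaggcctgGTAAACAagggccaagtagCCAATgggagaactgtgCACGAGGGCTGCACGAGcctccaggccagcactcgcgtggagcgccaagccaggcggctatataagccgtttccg
Arrdc4: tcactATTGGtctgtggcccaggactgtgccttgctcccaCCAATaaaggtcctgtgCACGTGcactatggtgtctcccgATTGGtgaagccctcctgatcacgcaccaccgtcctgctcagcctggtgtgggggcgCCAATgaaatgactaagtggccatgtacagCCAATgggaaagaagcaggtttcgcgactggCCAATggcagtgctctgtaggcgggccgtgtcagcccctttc

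The pair of E-box-like sites in the Txnip promoter starts at -85 and reads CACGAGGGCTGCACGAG. It differs in 2 of 12 fixed bases from a carbohydrate response element, searched on both strands as CACGTG, 5 bases of any kind, and CACGTG again. Of 32851 RefSeq promoter windows of 300 bases from 27025 genes, 0 held the exact element and 313 (0.953%) held one with at most 2 bases different. Of the 11 windows of the 8 genes, the Txnip window was the 1 that did. Arrdc4 held a single E-box, CACGTG, at -193, as 7.15% of all windows do, and 6 CCAAT boxes. E-boxes also stood in the Mlx window, at -40, and in the second Mlxipl window, at -98. The CCAAT box, a common promoter motif bound by NF-Y, was found in 8 of the 11 windows and in 37.4% of all windows. A forkhead motif, which FoxO factors can bind, was found at -121 in Txnip and in 3.65% of all windows. A match describes the letters of these windows, and no binding was measured here.

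**Figure D1:**
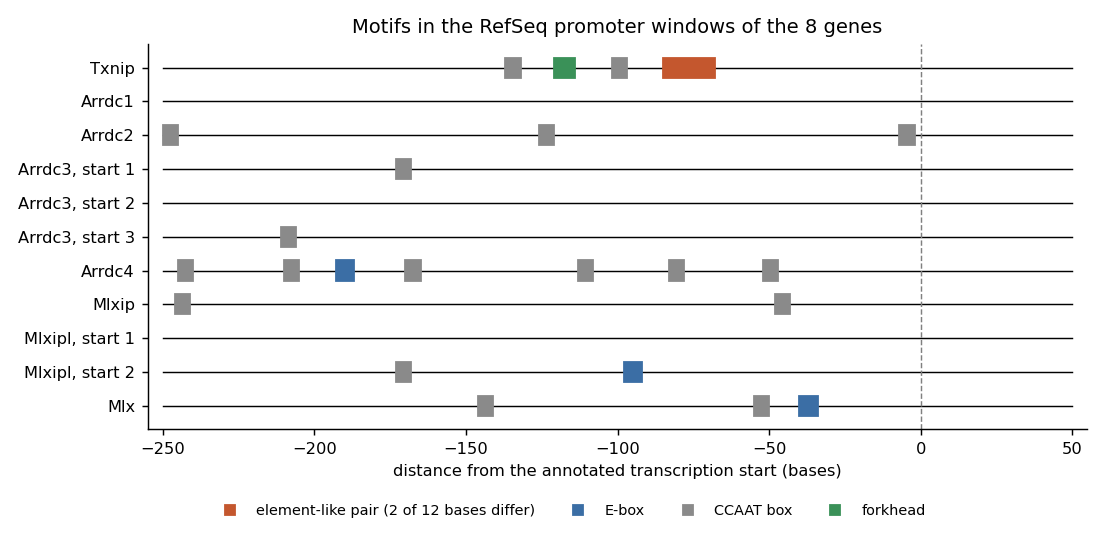
Motif matches in the 11 RefSeq promoter windows of the 8 genes, against distance in bases from the annotated transcription start (x axis, dashed line at the start), with 1 row per annotated start. Orange boxes mark the E-box-like pair of Txnip, blue boxes E-boxes, grey boxes CCAAT boxes and the green box a forkhead motif, and Arrdc4 holds 6 of the grey boxes.

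Txnip was measured at 110, 217 and 191 TPM in WT replicates 1, 2 and 3, and at 35.6, 35.9 and 108 TPM in TSC1-KO replicates 1, 2 and 3. TSC1-KO replicates 1 and 2 were far below every other mouse, whereas TSC1-KO replicate 3 stood at the level of the lowest WT mouse. The mean was 173 ± 55.8 TPM in WT and 59.8 ± 41.7 TPM in TSC1-KO (SD, n = 3), or 34.6% of the WT mean. The expected counts behind these levels were 1755, 3934 and 2798 in WT and 526, 505 and 1736 in TSC1-KO. On TMM-normalized CPM, the groups overlapped, with 107 in WT replicate 1 and 108 in TSC1-KO replicate 3, whereas on TPM they did not overlap by a narrow margin. The log2 fold change was -1.55 (SE 0.43). Without TSC1-KO replicate 3 the log2 fold change was -2.32 (SE 0.265), and with each of the other samples left out it ranged from -1.81 to -1.28.

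Gm15441, an antisense transcript that spans Txnip, had the same order of samples on CPM. Txnip lies on chromosome 3 at 96557957 to 96561883 on the plus strand and Gm15441 at 96555765 to 96566801 on the minus strand (GRCm38). They share 606 exonic bases, of 3123 in Txnip and 1676 in Gm15441, so the shared part is larger for Gm15441. Gm15441 was measured at 23.2, 44.97 and 41.6 TPM in WT and at 7.69, 8.57 and 25.8 TPM in TSC1-KO. Its log2 fold change was -1.40 (SE 0.439). The ratio of Txnip to Gm15441 varied little, between 4.60 and 4.82 in WT and between 4.19 and 4.62 in TSC1-KO. The library kit does not mark strand, so reads of the 2 genes over their shared bases cannot be told apart.

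Arrdc4, the alpha-arrestin most like Txnip in its known response to glucose, was measured at 47.4, 78.0 and 73.4 TPM in WT replicates 1, 2 and 3, and at 21.5, 22.1 and 22.9 TPM in TSC1-KO replicates 1, 2 and 3. The groups did not overlap on TPM or on CPM, and TSC1-KO replicate 3, which stood apart for Txnip, was level with the other TSC1-KO mice. The means were 66.3 ± 16.5 TPM in WT and 22.1 ± 0.697 TPM in TSC1-KO (SD, n = 3), or 33.4% of WT. Its expected counts were 1022, 1550 and 1206 in WT and 390, 421 and 409 in TSC1-KO. The log2 fold change was -1.54 (SE 0.135), with a range of -1.67 to -1.46 when each sample was left out in turn. Arrdc4 lies on chromosome 7 at 68736995 to 68749241 on the minus strand.

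Across all 13969 genes tested, edgeR called 212, or 1.52%, with 0.859% higher and 0.659% lower in TSC1-KO. Of the 8 genes, 7 passed the filter on low counts and 1 of these, Arrdc4, was among the called genes. Txnip was not, but joined them without TSC1-KO replicate 3, without both samples numbered 3 and with a replicate block. Since the set was chosen on this contrast, nothing is read from these calls. The TPM ranges of the groups did not overlap for Txnip, Arrdc4 and Mlxip, 3 of the 7, and for 22.7% of all genes tested (12.3% higher and 10.3% lower in TSC1-KO). On CPM this held for Arrdc4 and Mlxip, 2 of the 7, and again for 22.7% of all genes (10.9% higher and 11.7% lower).

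**Figure D2:**
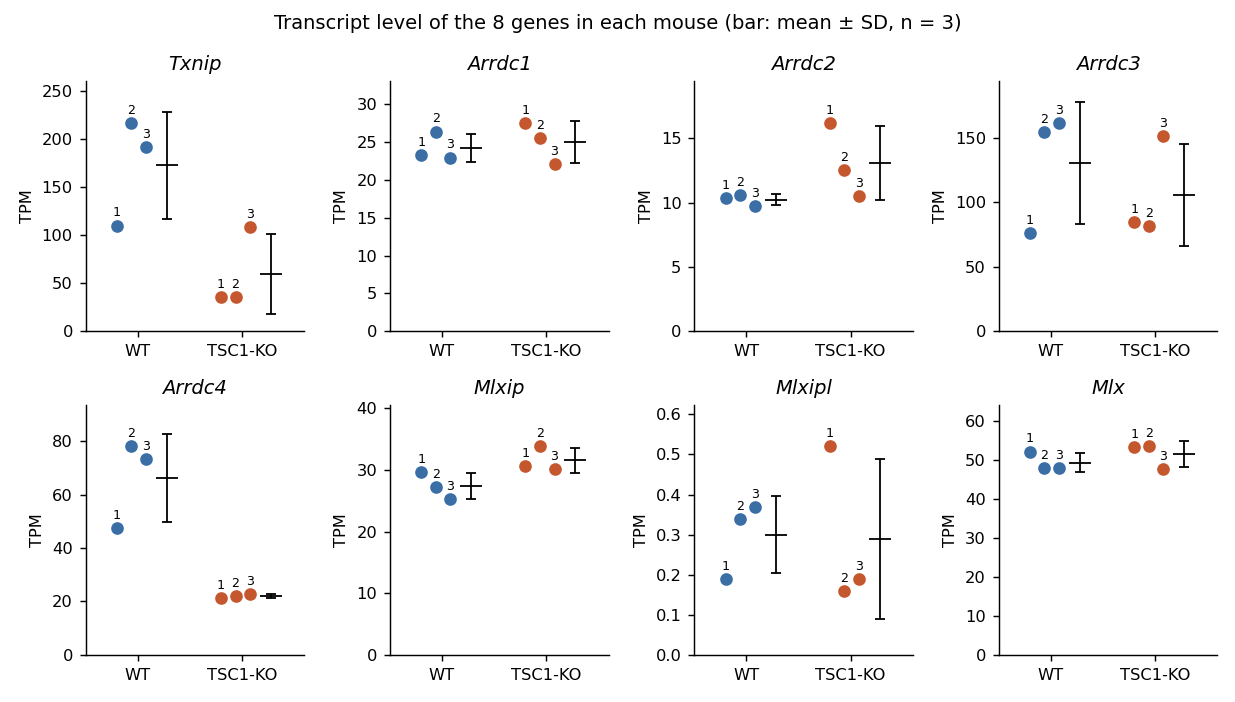
TPM of each of the 8 genes (y axis, from 0, own scale for each gene) in 3 WT mice (blue) and 3 TSC1-KO mice (orange), with replicate numbers above the points and mean ± SD (n = 3) as bars. The TSC1-KO points of Arrdc4 lie between 21.5 and 22.9 TPM, under all WT points, whereas TSC1-KO replicate 3 for Txnip (108 TPM) is level with WT replicate 1 (110 TPM).

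Arrdc3, which is known for its part in the turnover of beta-adrenergic receptors, split the mice in another way. It was measured at 76.2, 154 and 162 TPM in WT replicates 1, 2 and 3, and at 84.5, 81.6 and 151 TPM in TSC1-KO replicates 1, 2 and 3. WT replicate 1 and TSC1-KO replicates 1 and 2 were low and the other 3 mice were high, so each group held mice of both levels. The means were 131 ± 47.4 and 106 ± 39.5 TPM (SD, n = 3), and the log2 fold change was -0.34 (SE 0.316). It ranged from -0.70 to -0.13 with each sample left out.

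The ratio of Txnip to Arrdc3 was 1.44, 1.41 and 1.18 in WT and 0.421, 0.44 and 0.713 in TSC1-KO, so Txnip was above Arrdc3 in each WT mouse and below it in each TSC1-KO mouse. The ratio of Arrdc3 to Arrdc4 was 1.61, 1.98 and 2.20 in WT and 3.94, 3.69 and 6.62 in TSC1-KO. The ratio of Txnip to Arrdc4 was 2.32, 2.78 and 2.60 in WT, against 1.66, 1.63 and 4.72 in TSC1-KO. TSC1-KO replicate 3 thus had the highest ratio of Txnip to Arrdc4 of the 6 mice, while the other 2 TSC1-KO mice had the lowest.

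**Figure D3:**
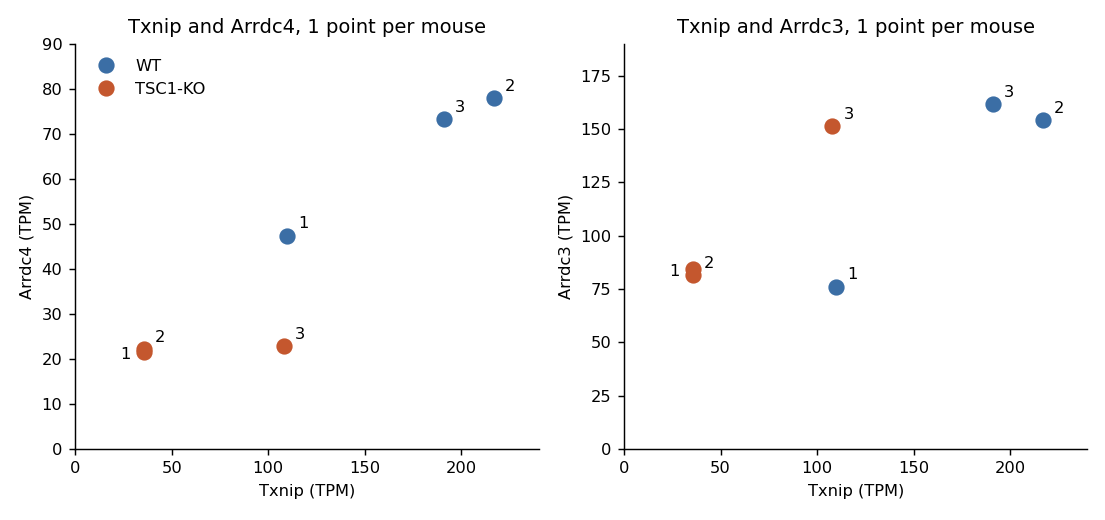
TPM of Arrdc4 (left, y axis) and Arrdc3 (right, y axis) against TPM of Txnip (x axes), with 1 point per mouse, WT in blue and TSC1-KO in orange, labelled by replicate number. TSC1-KO replicate 3 sits with WT replicate 1 on the Txnip axis (108 and 110 TPM), but at 22.9 TPM of Arrdc4 and at 151 TPM of Arrdc3.

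**Figure D4:**
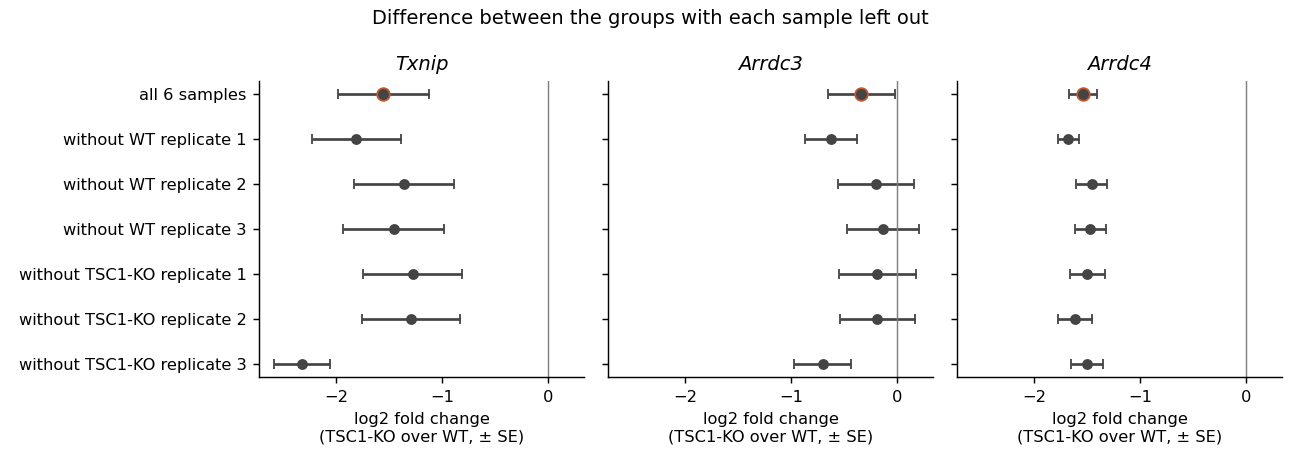
Log2 fold change, TSC1-KO over WT, of Txnip, Arrdc3 and Arrdc4 (x axes, bars are ± SE) from all 6 samples (top row, ringed in orange) and with 1 sample left out in each lower row. Txnip ranges from -2.32 to -1.28, Arrdc3 from -0.70 to -0.13 and Arrdc4 from -1.67 to -1.46.

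Arrdc1, which takes part in the budding of vesicles from the plasma membrane, showed little difference. Its levels were 23.3, 26.4 and 23.0 TPM in WT and 27.6, 25.5 and 22.1 TPM in TSC1-KO, with overlapping groups and a log2 fold change of 0.01 (SE 0.122). Arrdc2, a further adaptor of the family that has been studied less, was measured at 10.4, 10.6 and 9.74 TPM in WT and at 16.2, 12.5 and 10.5 TPM in TSC1-KO. TSC1-KO replicate 3 lay within the WT range of Arrdc2 and the other TSC1-KO mice above it. The log2 fold change of Arrdc2 was 0.32 (SE 0.161). Over the samples left out, Arrdc1 ranged from -0.04 to 0.09 and Arrdc2 from 0.16 to 0.45.

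Mlxip, which encodes MondoA, was slightly higher in the TSC1-KO mice. It was measured at 29.7, 27.2 and 25.3 TPM in WT and at 30.7, 33.8 and 30.1 TPM in TSC1-KO, and the groups did not overlap. The gap between the highest WT and the lowest TSC1-KO mouse was small, and the log2 fold change was 0.17 (SE 0.0796). Mlx was measured at 52.1, 47.9 and 48.0 TPM in WT and at 53.2, 53.5 and 47.5 TPM in TSC1-KO, with overlapping groups and a log2 fold change of 0.03 (SE 0.0859). The ratio of Mlxip to Mlx was 0.569, 0.569 and 0.528 in WT and 0.576, 0.633 and 0.634 in TSC1-KO. The transcript levels of the sensor and of its partner thus lay within narrow limits in all 6 mice, with a log2 fold change between 0.00 and 0.21 for either gene whichever sample was left out. Mlx shares 385 exonic bases with Psmc3ip on the opposite strand, measured at 12.8 to 23.0 TPM, and reads over them cannot be assigned.

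Mlxipl, which encodes ChREBP, the form of the sensor best known from liver and fat, was near the detection floor. Its expected counts were 4, 8 and 7 in WT and 10, 3 and 4 in TSC1-KO, or 0.16 to 0.52 TPM. It did not pass the filter on low counts, and no difference could be resolved at this depth.

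Levels per transcript length can be compared between genes. In WT the order of the mean levels was Txnip, Arrdc3, Arrdc4, Mlx, Mlxip, Arrdc1, Arrdc2 and Mlxipl. In TSC1-KO it was Arrdc3, Txnip, Mlx, Mlxip, Arrdc1, Arrdc4, Arrdc2 and Mlxipl. Arrdc4 went from rank 3 to rank 6, and the order of the other genes from Mlx down was the same in both groups. Neighbours whose ranges overlapped in WT were Txnip and Arrdc3, Arrdc3 and Arrdc4, Arrdc4 and Mlx, and Mlxip and Arrdc1. In TSC1-KO these were Arrdc3 and Txnip, Txnip and Mlx, and Arrdc1 and Arrdc4. Within single mice, Txnip was above Arrdc3 in 3 of 3 WT mice and below it in 3 of 3 TSC1-KO mice.

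RSEM also gives each gene a transcript length weighted by the share of each annotated transcript, which moves when the mix of transcripts moves. For Arrdc4 it was 3765, 3061 and 3138 bases in WT and 3425, 3773 and 3108 bases in TSC1-KO. It varied by 712 bases between mice, and the groups overlapped. For Mlxip the length varied by 420 bases, also with overlapping groups, and for Mlx by 29.4 bases. Txnip varied by 0.89 bases, and Arrdc2, Arrdc3 and Mlxipl had a fixed length. A shift between long and short transcripts of Arrdc4 was thus not seen between the groups at the precision of these estimates.

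The genes with the sample pattern most like that of Txnip were found by Pearson's r over the 6 samples on log2 CPM, as a description. They were Gm15441 (r = 0.998), Aes (0.998), Ap1s1 (0.997), Lgals9 (0.996) and Gpr174 (0.994). The likeness covers the order and relative spacing of the mice, not the size of the difference. Aes was measured at 613, 636 and 618 TPM in WT and at 563, 554 and 600 TPM in TSC1-KO, a log2 fold change of -0.15 against -1.55 for Txnip. Gpr174 was measured at 0.45, 0.8 and 0.83 TPM in WT and at 0.04, 0.04 and 0.34 TPM in TSC1-KO, too low to compare closely. Over 6 samples that differ along 1 main axis, a high r is common, and 235 genes had an r above 0.95 with Txnip.

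For Arrdc4 the genes most alike were Rpl14 (r = 0.996), Rpl10 (0.995), Ssr1 (0.995), Slc29a1 (0.994) and Stra13 (0.993), among 120 with an r above 0.95. Rpl14, a ribosomal protein gene, was measured at 300, 308 and 313 TPM in WT and at 232, 244 and 226 TPM in TSC1-KO. Slc29a1, an equilibrative nucleoside transporter, was measured at 67.1, 67.2 and 66.0 TPM in WT and at 56.7, 56.1 and 55.9 TPM in TSC1-KO. None of the 5 genes most like Txnip was among the 5 most like Arrdc4. Lists this short, out of so many genes with a high r, can easily share none, so nothing is read from that. Ribosomal protein genes have many near-identical pseudogenes, so the counts of Rpl14 and Rpl10 are less certain.

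Other genes around the set were taken from 8 lists of known roles. Each gene was tested in the edgeR fit over all genes, whose median log2 fold change was -0.003. At an unadjusted p under 0.05, which is given below for the lists, that fit had 18.0% of all genes (9.04% higher and 8.93% lower in TSC1-KO), and DESeq2 called 4.86% of the genes it gave an adjusted p. A share of a list near these is no result about the list. Of 25 known targets of MondoA and ChREBP other than the 8 genes, 18 were tested, with 0 called higher, 1 called lower and a median log2 fold change of 0.178. At an unadjusted p under 0.05 there were 10 of the 18, 8 higher and 2 lower, and DESeq2 called 3. The 1 that passed was Rgs16, a regulator of G-protein signalling, which fell from 22.3, 21.2 and 20.9 TPM in WT to 14.2, 13.6 and 14.8 TPM in TSC1-KO (log2 fold change -0.62, SE 0.104, adjusted p = 0.0297). Leaving out WT replicate 2 or 3, or TSC1-KO replicate 1 or 2, left 0 of the list called. Without WT replicate 1, 2 were called, and without TSC1-KO replicate 3, 7 were called.

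Klf10, a zinc-finger repressor, and Fasn, the fatty acid synthase, had the smallest unadjusted p of the other listed targets and lay in opposite directions. Klf10 was measured at 18.1, 28.8 and 24.1 TPM in WT and at 11.5, 14.5 and 16.2 TPM in TSC1-KO (log2 fold change -0.78, SE 0.197, adjusted p = 0.0871). Fasn was measured at 273, 273 and 245 TPM in WT and at 404, 442 and 317 TPM in TSC1-KO (log2 fold change 0.53, SE 0.111, adjusted p = 0.054). Neither passed the threshold, although the groups did not overlap for either gene. Of the 18 targets, 14 had a positive log2 fold change and 4 a negative one. Among the positive values, the lipid-synthesis targets Acly, Acaca, Elovl6 and Me1 had 0.27, 0.37, 0.31 and 0.24. Pnpla3 had 0.07 and the hexokinase gene Hk2 had 0.64, and none of these was called. Besides Rgs16 and Klf10, the targets with negative values were Agpat2 (-0.44) and Khk (-0.51), which were not called either. Scd1, Scd2, Gpam and Tkfc of the list were not analysed here.

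The Max and Mlx network holds the bHLH-zipper factors that share partners with Mlx. Of 9 tested, 0 were called higher and 1 lower, with a median log2 fold change of -0.056. That gene was also the 1 with an unadjusted p under 0.05, and DESeq2 called 1. Mycn, a driver of progenitor growth, fell from 85.3, 92.2 and 85.4 TPM in WT to 65.8, 72.2 and 65.6 TPM in TSC1-KO (log2 fold change -0.40, SE 0.0799, adjusted p = 0.0479). That call lay near the threshold, and it was lost with RLE normalization, without both samples numbered 3, and with WT replicate 2 or 3 or TSC1-KO replicate 1 or 2 left out. Mycl1 had a log2 fold change of -0.16 (SE 0.0809, adjusted p = 0.331), and Max, the shared partner of Myc and Mxd factors, of 0.09 (SE 0.096, adjusted p = 0.652).

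Thioredoxins, which Txnip binds, and their reductases and peroxiredoxins gave no call by edgeR among 10 genes tested. By the unadjusted p, 2 were below 0.05, both lower in TSC1-KO, a share near that of all genes, and DESeq2 called 0. The median log2 fold change was -0.106, and 9 of the 10 values were negative. Prdx2, a cytosolic peroxiredoxin, had levels of 1088, 1076 and 1101 TPM in WT and of 866, 943 and 982 TPM in TSC1-KO (log2 fold change -0.26, SE 0.0737, adjusted p = 0.109). Prdx1 had a log2 fold change of -0.25 (SE 0.0652, adjusted p = 0.0926).

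Among other arrestin-fold genes, 5 were tested and edgeR and DESeq2 both called 0, with 2 at an unadjusted p under 0.05 and a median log2 fold change of 0.053. The 2 were the Vps26-type genes Dscr3 (log2 fold change 0.30, SE 0.113, adjusted p = 0.21) and Vps26a (0.25, SE 0.108, adjusted p = 0.264), whose products work in the sorting of endosomal cargo. Arrdc5, the remaining alpha-arrestin, was at 0 counts in every sample, where up to 3 counts, or 0.212 CPM, could have been missed.

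Nedd4-family ligases and adaptors, which alpha-arrestins bring to their cargo, had 12 genes tested and 0 called by edgeR, 3 at an unadjusted p under 0.05 and 1 called by DESeq2, with a median log2 fold change of 0.111. Hecw1, a ligase found mainly in neurons, had levels of 85.0, 68.8 and 71.1 TPM in WT and of 100.3, 109 and 84.4 TPM in TSC1-KO (log2 fold change 0.36, SE 0.1, adjusted p = 0.107). Hecw2 had a log2 fold change of 0.20 (SE 0.0855, adjusted p = 0.259).

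The glucose transporters and hexokinases, which set the supply of glucose-6-phosphate, had 14 genes tested and 0 called by edgeR. By the unadjusted p, 6 were below 0.05 (4 higher, 2 lower), DESeq2 called 2, and the median log2 fold change was 0.087. Slc2a1, the main glucose transporter of the blood-brain barrier and of glia, was measured at 35.5, 34.9 and 29.6 TPM in WT and at 70.1, 43.5 and 54.1 TPM in TSC1-KO, with no overlap (log2 fold change 0.72, SE 0.151, adjusted p = 0.0554). Endothelial markers, among whose cells Slc2a1 is abundant, summed to 210 to 277 TPM in WT and 180 to 212 TPM in TSC1-KO, with 0 of 8 called by edgeR, 5 at an unadjusted p under 0.05, all lower, 4 called by DESeq2, and a median log2 fold change of -0.483. Slc2a10 was measured at 1.88, 1.70 and 1.71 TPM in WT and at 1.07, 0.71 and 0.93 TPM in TSC1-KO (log2 fold change -0.98, SE 0.243, adjusted p = 0.0832).

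AMPK, the energy-sensing kinase that marks Txnip protein for degradation, had 6 subunit genes tested and 0 called by edgeR. By the unadjusted p 1 was below 0.05, DESeq2 called 1, and the median log2 fold change was 0.05. Prkaa2, a catalytic subunit, was measured at 33.9, 30.6 and 29.6 TPM in WT and at 42.9, 43.2 and 37.2 TPM in TSC1-KO (log2 fold change 0.36, SE 0.0759, adjusted p = 0.0539). Prkag2 had a log2 fold change of 0.11 (SE 0.0671, adjusted p = 0.417).

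Glucocorticoids and FoxO factors can also raise Txnip and some alpha-arrestins. Genes that they raise were listed together with Foxo1, Foxo3 and Nr3c1, the glucocorticoid receptor gene. This list held the most calls of the 8 lists in the fit of all 6 samples. The MondoA and ChREBP targets had as many without TSC1-KO replicate 3 (7 and 7) and without both samples numbered 3 (3 and 3). Of the 15 tested in the glucocorticoid and FoxO list, 6 were called higher and 0 lower, and the median log2 fold change was 0.352. At an unadjusted p under 0.05 there were 9, 7 higher and 2 lower, and DESeq2 called 7. The 2 lower genes were the factors Foxo1 and Nr3c1 (log2 fold change -0.30 for Nr3c1). Mt1, a metal-binding metallothionein, rose from 95.9, 114 and 106 TPM in WT to 206, 201 and 215 TPM in TSC1-KO (log2 fold change 0.93, SE 0.105, adjusted p = 0.00511). Zbtb16, a zinc-finger repressor, rose from 8.10, 8.32 and 6.57 TPM to 14.2, 11.6 and 11.5 TPM (log2 fold change 0.67, SE 0.124, adjusted p = 0.0402).

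Mt2 rose with a log2 fold change of 0.52 (SE 0.0992, adjusted p = 0.0449), and the circadian gene Per1 with 0.49 (SE 0.0864, adjusted p = 0.0352). Tsc22d3, which encodes the glucocorticoid-induced leucine zipper, rose with 0.44 (SE 0.0808, adjusted p = 0.0411). Cdkn1b, the cell cycle inhibitor p27, rose with 0.37 (SE 0.0619, adjusted p = 0.0297), from 107, 103 and 105 TPM to 144, 135 and 136 TPM. For these 6 genes the groups did not overlap, and TSC1-KO replicate 3 lay with the other TSC1-KO mice. The metallothioneins are close relatives, and reads can be shared between them.

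Foxo1 itself was measured at 25.4, 19.7 and 19.7 TPM in WT and at 15.2, 16.1 and 17.4 TPM in TSC1-KO (log2 fold change -0.43, SE 0.111, adjusted p = 0.0918). Pdk4, a kinase that restrains pyruvate oxidation, had a log2 fold change of 0.49 (SE 0.164, adjusted p = 0.162). Leaving out WT replicate 2 or 3, or TSC1-KO replicate 1 or 2, left 1 gene of the list called, and without TSC1-KO replicate 3, 7 were called. Mt1 was called in each of 16 alternative analyses, and the other 5 in 9 to 12 of them, with adjusted p-values up to 0.192.

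**Figure D5:**
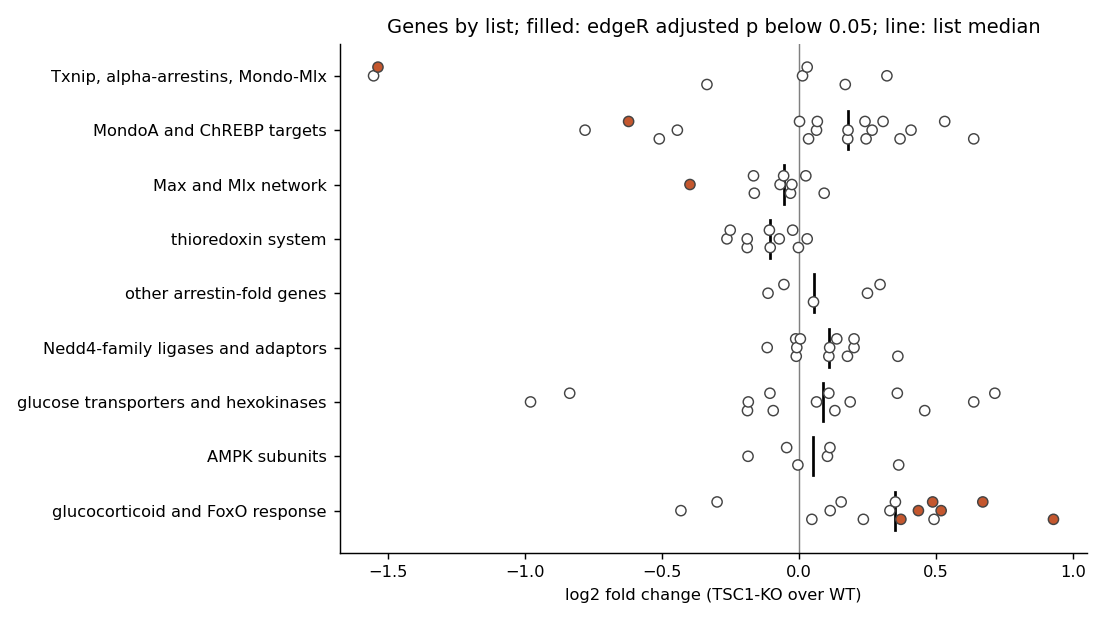
Log2 fold change, TSC1-KO over WT (x axis), of each tested gene by list (y axis), with filled points for edgeR adjusted p below 0.05 and a black line at the median of each of the 8 lists. Filled points are 1 in the top row (Arrdc4), 1 for MondoA and ChREBP targets (Rgs16), 1 in the Max and Mlx network (Mycn) and 6 for the glucocorticoid and FoxO response, and Txnip is the open point at -1.55.

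Summed markers of other cells in the tissue are given here beside these values, and no correlation between the 2 was computed. The choroid plexus, the secretory tissue of the ventricles, had summed marker levels of 1700, 1180 and 2470 TPM in WT and of 31.8, 111 and 867 TPM in TSC1-KO. All 6 of its markers were present and had negative log2 fold changes (median -1.776). Of these, 0 were called by edgeR, 6 had an unadjusted p under 0.05 and DESeq2 called 3. TSC1-KO replicates 1 and 2 were the lowest mice, as for Txnip. TSC1-KO replicate 3 was below every WT mouse, whereas for Txnip it was level with WT replicate 1. The order of the WT mice also differed, with WT replicate 2 the lowest of them for the choroid plexus and the highest for Txnip. The part of the choroid plexus in the Txnip values was not tested. In whole tissue, fewer cells of a type and less RNA per cell cannot be told apart.

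Ventral telencephalon markers summed to 535, 536 and 611 TPM in WT and to 305, 295 and 394 TPM in TSC1-KO. All 7 had negative log2 fold changes (median -0.676), and edgeR called 4 of them (Dlx1, Gad1, Gad2 and Lhx6). An unadjusted p under 0.05 was found for all 7, and DESeq2 called 6. All 3 TSC1-KO mice were below all WT mice, as for Arrdc4, but also as for the choroid plexus sum and for 10.3% of all genes tested on TPM. The shared split is therefore no link between these markers and Arrdc4, and the part of these cells in the Arrdc4 values was not tested. Erythroid markers summed to 1690 to 5570 TPM in WT and 1290 to 1780 TPM in TSC1-KO (0 of 4 called, Hbb-b2 at 0). Meningeal markers summed to 175 to 290 TPM in WT and 99 to 252 TPM in TSC1-KO (0 of 5), and mural markers to 110 to 136 and 97.5 to 112 TPM (0 of 4). Microglial markers summed to 111 to 148 and 106 to 154 TPM (0 of 6), and astrocyte and radial glia markers to 2810 to 3400 and 2710 to 2880 TPM (0 of 5). These counts are edgeR's, and DESeq2 also called 0 in each of these lists. At an unadjusted p under 0.05 there were 4 erythroid, 1 meningeal, 2 mural, 3 microglial and 2 astrocyte and radial glia markers, all lower in TSC1-KO, against 8.93% of all genes that were lower at that threshold.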

How the data were processed

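Telencephalon RNA of 3 WT and 3 TSC1-KO mice (postnatal day 0) gave 1 gene table each. The genotype labels gave the groups and the titles the replicate numbers. The authors trimmed reads and mapped them with MapSplice2 (genome mm10), and RSEM 1.2.12 estimated the abundance of RefSeq transcripts. FastQC is also named in the submitters' processing notes. The RefSeq release is not given in the sources used here. The deposited expected counts are RSEM's estimates of reads per gene, which share out reads that match several transcripts and are not normalized. The deposited TPM divides them by effective length and scales the sum of each sample, and the deposited FPKM, also from RSEM, was not used. The deposited transcript and effective lengths are in bases, and no deposited column was left unmapped. The library kit does not mark strand.

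For the main test, edgeR 4.0.16 under R 4.3.3 was run on the rounded expected counts (filterByExpr, TMM, quasi-likelihood), with Benjamini-Hochberg adjustment over the 13969 genes tested and a threshold of 0.05. The SE of a log2 fold change was its size over the square root of the F statistic. The integrative method of the study was not run, since it rests on permuted samples. Counts of any 2 mice of a group differed by more than sampling noise. Depth was 14119365 to 17772865 counts, and floors cover counting error only. The scripts were tested on simulated counts, in which false calls took a larger share than the threshold allows, more so with DESeq2 than with edgeR.

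The 8 genes and all gene lists were chosen with earlier results of these data known. All 8 genes are given. From each list every called gene and the 2 others with the smallest unadjusted p are given in full, besides Tsc1 and the 5 genes most like Txnip and Arrdc4 by Pearson's r on log2 CPM (prior count 2). Acly, Acaca, Elovl6, Me1, Pnpla3, Hk2, Agpat2, Khk, Nr3c1 and the genes of the closing observations were added after their values were seen. Positions and overlaps are from GENCODE M21 (GRCm38), and promoter windows are RefSeq's, of which all 8 genes had at least 1. Protein sequences were not analysed here.

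Alternatives were RLE and upper-quartile normalization, DESeq2 1.42.0, limma 3.58.1 on log2(TPM + 1) and log2(TPM + 0.1), no filter, at least 10 counts in every sample, effective-length offsets, a replicate block, each sample left out and both samples numbered 3 left out.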

Additional observations from a re-analysis of the deposited data

How the results depend on the processing

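Over 16 alternatives no called gene given in full from the 8 lists changed its direction. The directions of the other called genes were not compared. As a description of the set, which was chosen on this contrast, the fit called 2 of its genes with a replicate block, without TSC1-KO replicate 3 and without both samples numbered 3, against 1. The number of genes called, 212, became 640 with DESeq2 (339 higher, 301 lower), 346 with no filter on low counts (171 lower), 551 with the replicate block (273 higher, 278 lower) and 434 without both samples numbered 3 (285 lower). Of the MondoA and ChREBP targets, 3 were called with DESeq2, with the block and without both samples numbered 3, and 2 with limma on log2(TPM + 1), with limma on log2(TPM + 0.1) and with no filter. In the Max and Mlx network 0 were called with RLE and without both samples numbered 3. DESeq2 called 1 Nedd4-family gene, 2 glucose transporters and hexokinases and 1 AMPK subunit. No filter, the block and leaving out both samples numbered 3 each called 1 glucose transporter or hexokinase and 1 AMPK subunit. The block called 1 thioredoxin gene, and without both samples numbered 3 the glucocorticoid and FoxO list had 3 calls.

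With each sample left out, the count of genes called ran from 29 (without WT replicate 2) to 799 (without TSC1-KO replicate 3), being 447 without WT replicate 1, 35 without WT replicate 3 and 37 without TSC1-KO replicate 1 or 2, with 24 to 368 higher and 4 to 431 lower. Of the set, 1 to 2 were called. Calls ran from 0 to 7 for MondoA and ChREBP targets, 0 to 1 for the Max and Mlx network, other arrestin-fold genes, Nedd4-family genes and AMPK subunits, 0 to 2 for glucose transporters and hexokinases, 0 for thioredoxin genes, and 1 to 7 for the glucocorticoid and FoxO list. Log2 fold changes ran from -0.70 to -0.13 for Arrdc3, -0.04 to 0.09 for Arrdc1, which crossed 0, 0.10 to 0.21 for Mlxip and 0.00 to 0.08 for Mlx. The causes of these shifts were not tested.

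Replicate numbers are shared between the groups, but the deviations of same-numbered samples from their group means correlated at 0.267, -0.133 and 0.318, so the numbers were not taken as pairs. The replicate block is given above as an alternative only. Samples numbered 1 did correlate best with each other and so did those numbered 3, whereas those numbered 2 did not, which is a hint from the data only. The paper states that the controls were Cre-negative littermates. Which mice shared a litter is not given in the sources used here, so the main test takes no account of litter. The samples numbered 3 were also the males by Ddx3y and Xist, and the part of sex in their likeness was not tested. With 3 mice a group, the spread of Txnip and Arrdc3 between mice, not depth, limited what could be resolved, and for Mlxipl depth did.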

Other observations

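A further 3 genes set apart the same mice as Arrdc3, in the opposite sense, and were picked after their values were seen. How many of all genes do so was not counted. For Foxo3 and Klhl24 the gap between the high and the low mice was smaller than for Arrdc3. Bcl6, a transcriptional repressor, was measured at 17.3, 8.34 and 7.08 TPM in WT replicates 1, 2 and 3, and at 17.2, 18.5 and 6.29 TPM in TSC1-KO replicates 1, 2 and 3. Foxo3, a forkhead factor that is active when growth factor signalling is low, was measured at 24.1, 17.8 and 17.2 TPM in WT and at 24.0, 22.3 and 18.9 TPM in TSC1-KO. Klhl24, a ubiquitin ligase adaptor, was measured at 72.2, 59.6 and 61.5 TPM in WT and at 76.7, 76.1 and 63.2 TPM in TSC1-KO. For each of the 3 genes, WT replicate 1 and TSC1-KO replicates 1 and 2 were the highest mice, the same mice in which Arrdc3 was lowest. None of the 3 was called between the groups (edgeR adjusted p = 0.701 for Bcl6, 0.698 for Foxo3 and 0.456 for Klhl24).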
